A study of Mus musculus with 2 samples.

Results

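The genes described here encode 10 apolipoproteins, namely Apob, Apoa1, Apoa2, Apoa4, Apoa5, Apoc1, Apoc2, Apoc3, Apoe and Apom, and they were taken by gene symbol from the 32285 genes of the count tables. All 10 were found, once each, in both sections, and each passed the minimum of 1000 UMIs over the sections. Apolipoproteins are the protein part of lipoproteins, the particles that carry triglyceride and cholesterol in blood, and the liver makes most of them. Apob is the single scaffold of each very low-density lipoprotein (VLDL) particle. The smaller apolipoproteins move between particles and set how lipases, receptors and cholesterol acceptors treat them.

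The measurements came from Visium spatial transcriptomics (ST), in which a frozen tissue section lies on a slide printed with barcoded spots and transcripts are captured by their 3′ end and tagged, so that each unique molecular identifier (UMI) stands for a single captured molecule. The mice were male C57BL/6J animals, 5 weeks old on arrival and acclimated for 1 week. One liver section came from a mouse on normal chow (NCD). The other came from a mouse on a 60% fat diet (HFD), which served in the study as a model of non-alcoholic fatty liver disease. The diet was fed for 14 weeks before an intervention of 8 weeks, in which both groups had food and water freely and received a daily oral dose of distilled water in place of a drug, and livers were cut at 10 µm. Each diet was thus represented by 1 section of 1 mouse, so that what is due to diet, to the animal, to the section or to the slide cannot be told apart, no test between groups was possible, and every 95% interval below covers counting error only. A level is given as counts per 1000000 UMIs of the section (CPM). No correction for transcript length was applied, since 1 UMI stands for 1 transcript end whatever the length, though capture may differ between genes. A difference is given as the log2 ratio of 2 CPM values, and it is called past 0.5 in either direction, a 1.41-fold difference.

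The NCD section held 3692 spots and 29037988 UMIs (median per spot 4187.5), and the HFD section held 3594 spots and 72118803 UMIs (median per spot 18549). The sections shared 3173 spot barcodes, which are printed alike on every slide and do not mark shared material. The labels call the samples liver but also carry entries for a haematopoietic stem cell line and an immune cell type. Transcripts of 6 hepatocyte genes (Alb, Ttr, Trf, Serpina1a, Fgb and Rbp4) made up 85780 CPM in the NCD and 95493 CPM in the HFD section, against 285 and 230 CPM for 7 Kupffer cell genes, so the tissue entry is the one the counts bear out. Red blood cell transcripts were lower in the HFD section, at 1246 against 6676 CPM, and lipid-associated macrophage transcripts were higher, at 310 against 81.3 CPM. Within a spot, fewer cells of a type and less RNA per cell cannot be told apart.

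The genes lie in 2 clusters and at 3 separate places in the genome (build GRCm38, GENCODE annotation). Apoa1, Apoc3, Apoa4 and Apoa5 occupy 43.3 kb of chromosome 9, and Apoe, Apoc1 and Apoc2, with Apoc4 between the last pair, occupy 27.6 kb of chromosome 7. Apoa2 is at chr1:171225054-171226379, Apob at chr12:7977648-8016835 and Apom at chr17:35128997-35132050. Apoa4 is at chr9:46240696-46243459 on the plus strand and Apoa5 at chr9:46268633-46271919, also on the plus strand. Apoc2 is at chr7:19671579-19677941 on the minus strand. The DNA before the starts of Apoa4, Apoc2 and Apoa5 is shown because these are 3 of the 4 genes past the call between the sections and each lies in a cluster. The runs are from RefSeq (GRCm38.p6), read 5′ to 3′ on the strand of the gene, and stop where an annotated exon of a protein-coding transcript begins. Capitals mark matches, on either strand, to the nuclear receptor hexamer AGGTCA, the HNF4 core CAAAGTNCA, the TATA box TATAAA and the E-box CACGTG. For Apom annotated exons covered the window, and Apoc1 and Apoc3 had no entry.
Apoa4, chr9:46240594-46240695: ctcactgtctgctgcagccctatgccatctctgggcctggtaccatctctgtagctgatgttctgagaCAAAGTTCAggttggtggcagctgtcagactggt
Apoc2, chr7:19677942-19678082: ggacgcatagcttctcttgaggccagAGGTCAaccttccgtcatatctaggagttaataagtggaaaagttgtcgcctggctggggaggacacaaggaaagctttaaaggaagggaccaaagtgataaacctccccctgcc
Apoa5, chr9:46268358-46268607: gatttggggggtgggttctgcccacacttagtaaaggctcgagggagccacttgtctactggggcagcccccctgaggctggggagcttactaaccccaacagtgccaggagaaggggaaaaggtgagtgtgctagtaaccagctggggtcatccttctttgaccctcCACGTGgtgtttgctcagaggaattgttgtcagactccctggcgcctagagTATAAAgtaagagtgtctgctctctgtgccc

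Windows of 300 bases around the start were held for 8 of the 10 genes, 12 windows in all. The HNF4 core was found in 1.41% of 32851 such windows across the genome and, among these genes, only in that of Apoa4. The hexamer AGGTCA occurred in 16.3% of all windows and in those of Apoa2 and Apoc2. The E-box occurred in 7.15% and in those of Apoa5. The TATA box occurred in 13.6% and in those of Apoa2, Apoa5, Apob and Apoe. No searched motif contains another, the motifs were picked with these windows in view, and a match describes letters and not a bound site.

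Transcripts of the 10 genes together made up 7.45% of all UMIs in the NCD and 9.18% in the HFD section. This is 74457 CPM (74358 to 74557) against 91780 CPM (91710 to 91850), giving a log2 ratio of 0.30. Apoa2 and Apoe ranked at places 2 and 3 among all genes in both sections and held 34.3% and 28.1% of the apolipoprotein UMIs in the NCD section. In the NCD section the order ran from Apoa2 through Apoe, Apoc1, Apoa1, Apoc3, Apoa5, Apob, Apom and Apoc2 down to Apoa4. In the HFD section the same 5 genes led in the same order, and Apoa4, Apoc2, Apob, Apoa5 and Apom followed. No neighbours in either order had overlapping counting intervals; the closest were Apom at 468 CPM (461 to 476) and Apoc2 at 448 CPM (440 to 456) in the NCD section, and Apob at 1375 CPM (1367 to 1384) and Apoa5 at 1331 CPM (1323 to 1340) in the HFD section. How far such gaps vary between mice was not measured.

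Apoa4 and Apoc2 were higher in the HFD section and Apoa5 and Apom were lower, while the other 6 genes stayed short of the call. Across the 6422 genes with at least 1000 UMIs, 24.2% were called higher and 5.47% lower, so 2 of 10 called higher is a share near the background and 2 of 10 called lower is above it. With all ratios centred on the median gene, 14.2% were called higher and 10.8% lower, and the apolipoproteins again gave 2 and 2. The median log2 ratio was 0.19 over these 6422 genes and also 0.19 over the 10 apolipoproteins.

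**Figure D1:**
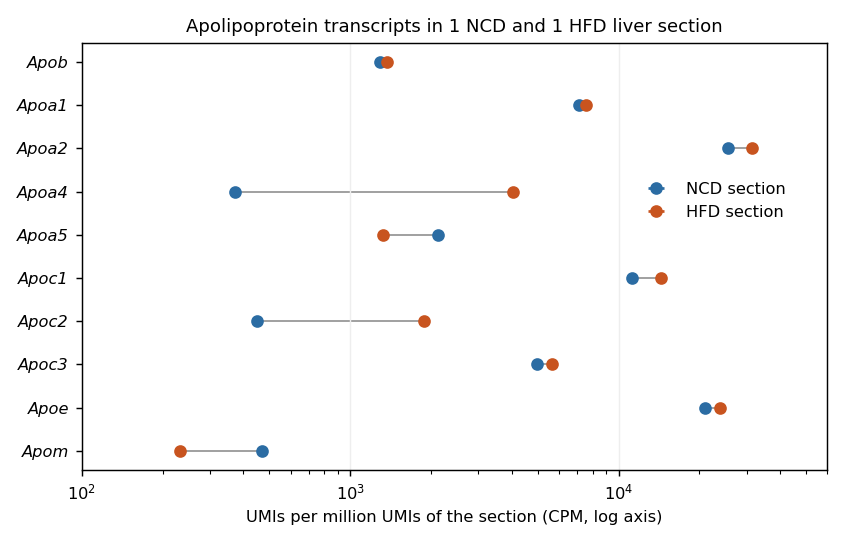
Level of each of the 10 apolipoprotein genes in CPM on a log axis, with blue points for the NCD section and orange points for the HFD section, 1 section each; the 95% counting intervals are narrower than the points. Apoa4 moved from 373 to 4037 CPM and Apoc2 from 448 to 1891 CPM, Apoa5 and Apom were lower in the HFD section, and the points of the other 6 lie close together (relative to the median gene, Apob and Apoa1 were slightly lower in the HFD section).

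Among the structural apolipoproteins, Apoa4, made by intestine and liver and associated with the expansion of secreted VLDL, differed most. It stood at 373 CPM (366 to 380) in the NCD and at 4037 CPM (4022 to 4051) in the HFD section, a 10.8-fold difference and a log2 ratio of 3.43 (3.41 to 3.46). Its place among all genes moved from 386 to 32, and its share of the apolipoprotein UMIs from 0.501% to 4.40%. Of 5 enterocyte genes, Alpi, Sis and Cdx2 had no UMI in either section and Vil1 had 4 and 17, while Fabp2, which hepatocytes also express, stood at 261 and 418 CPM. The antisense gene Gm10680, which overlaps the end of Apoa4, had 12 and 131 UMIs.

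Apob, the VLDL scaffold, was measured at 1295 CPM in the NCD and 1375 CPM in the HFD section, giving a log2 ratio of 0.09 (0.07 to 0.10). Apoa1, the main protein of high-density lipoprotein (HDL), stood at 7093 and 7584 CPM, a ratio of 0.10 (0.09 to 0.10). Both ratios changed sign, to -0.11 and -0.10, when centred on the median gene. Apoa2, the other abundant HDL protein, stood at 25525 and 31423 CPM, giving a log2 ratio of 0.30, or 0.11 relative to the median gene. None of these 3 passed the call, and Apob and Apoa1 in particular had nearly equal levels in the sections.

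The genes that govern triglyceride hydrolysis went in different directions. Apoc2, the cofactor that lipoprotein lipase requires, stood at 448 CPM (440 to 456) in the NCD and 1891 CPM (1881 to 1902) in the HFD section, a 4.22-fold difference and a log2 ratio of 2.08 (2.05 to 2.10). Apoa5, which raises lipolysis in plasma, stood at 2124 CPM (2108 to 2141) and 1331 CPM (1323 to 1340), giving a log2 ratio of -0.67 (-0.69 to -0.66). Apoc3, an inhibitor of lipolysis and of remnant uptake, stood at 4960 and 5660 CPM, giving a log2 ratio of 0.19 (0.18 to 0.20), and 0.00 when centred on the median gene. Apoc1, which restrains lipase and receptor binding, stood at 11264 and 14428 CPM, a ratio of 0.36 (0.35 to 0.36) and 0.16 when centred. The activator Apoc2 was thus the only one of the 3 Apoc genes past the call.

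Apoe, the ligand by which remnant particles bind their receptors on hepatocytes, stood at 20906 and 23817 CPM, giving a log2 ratio of 0.19 (0.18 to 0.19), or -0.01 relative to the median gene. Apom, the HDL protein that carries sphingosine-1-phosphate, stood at 468 CPM (461 to 476) and 233 CPM (230 to 237), so that its HFD level was 0.498 of its NCD level (log2 interval -1.04 to -0.97). Apom was the least abundant of the 10 in the HFD section and the one that was lower there by most.

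Ratios differed within each cluster. On chromosome 9 the log2 ratios were 0.10 for Apoa1, 0.19 for Apoc3, 3.43 for Apoa4 and -0.67 for Apoa5. On chromosome 7 they were 0.19 for Apoe, 0.36 for Apoc1, -0.15 for Apoc4 and 2.08 for Apoc2. Apoc4, which is read in the same direction and ends just before the Apoc2 run printed above, stood at 3269 and 2943 CPM. The annotation also holds Gm44805, a gene model on the same strand that spans Apoc4 and Apoc2 and had no row in the count tables.

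Because the sections differed in depth, the ratios were also taken within classes of spots of like depth. In spots with at least 1000 and under 3000 UMIs, 745 in the NCD and 52 in the HFD section, the log2 ratio was 3.30 for Apoa4, 1.89 for Apoc2, -0.85 for Apom and -0.41 for Apoa5. In spots with 3000 to under 10000 UMIs the 4 ratios were 3.47, 2.02, -1.04 and -0.62, and in spots with 10000 or more UMIs they were 3.45, 2.05, -0.98 and -0.67. The ratio of Apoa5 therefore fell short of the call only in the shallowest of these classes. For Apoa2 the ratio was 0.55, 0.52 and 0.26 in the same 3 classes, so Apoa2 passed the call in both shallower classes and not in the deepest. Apoc3 had 0.50 (0.39 to 0.61), 0.38 and 0.15, and so reached the call in the shallowest class. The summed ratio of the 10 genes was 0.49, 0.44 and 0.28.

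The spread across spots was taken after each spot was thinned to 3000 UMIs, which left 2107 NCD and 3538 HFD spots. At this depth Apoa4 had a mean of 1.09 UMIs per spot in the NCD section, with the 10th percentile at 0 and the 90th at 3, and a mean of 12.2 in the HFD section, with the same percentiles at 6 and 19. In 99.6% of all pairs of 1 spot from each section the HFD spot had more Apoa4 UMIs. For Apoc2 the means were 1.29 and 5.38, and the HFD spot was higher in 90.1% of pairs. For Apoa5 the means were 6.33 and 4.01, and the NCD spot was higher in 70.0% of pairs. For Apom the means were 1.40 and 0.709, the NCD spot was higher in 52.4% of pairs, and 27.8% were equal. Apoa4 thus differed between nearly all of these spots, which leave out 1585 NCD spots of lower depth, and the Apom distributions overlapped widely at this depth.

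**Figure D2:**
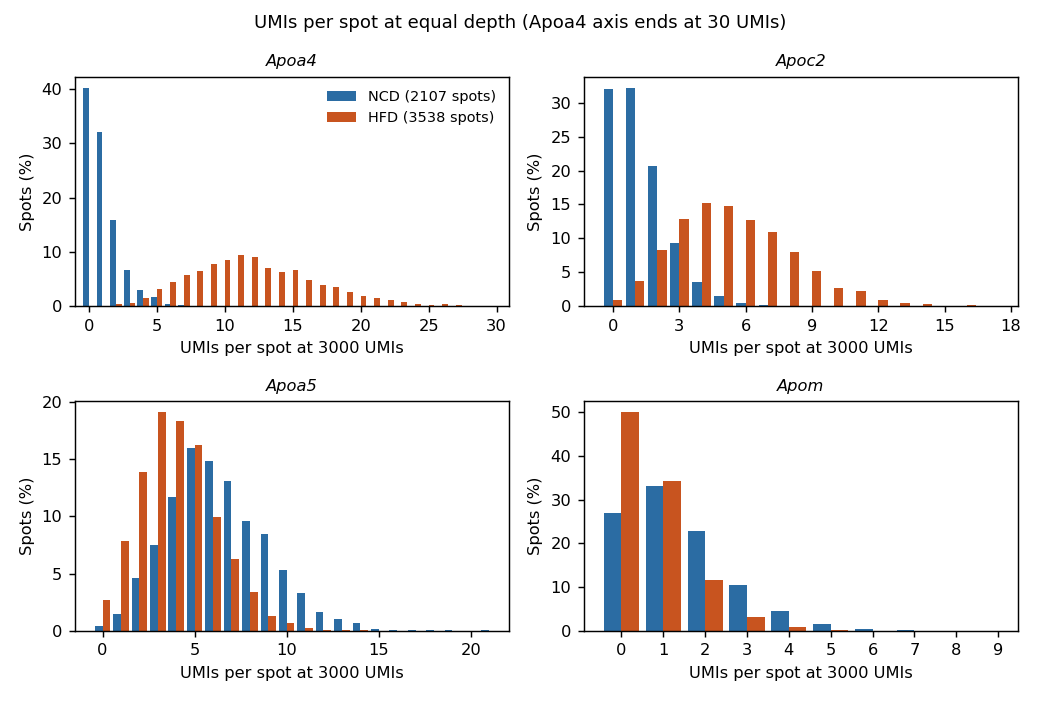
Percentage of spots (vertical axis) by the number of UMIs per spot at 3000 UMIs (horizontal axis) for the 4 called genes, blue for 2107 NCD spots and orange for 3538 HFD spots. The Apoa4 distributions hardly overlap, those of Apoc2 overlap in part, and those of Apoa5 and Apom overlap widely with the HFD spots lower.

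The unevenness of a gene is given as the coefficient of variation beyond counting noise (excess CV). Apoa4 was the most uneven of the 10 in the NCD section, with an excess CV of 65.0%, followed by Apoc2 with 45.4% and Apom with 31.0%. The HFD values were 28.4%, 24.6% and 27.8%. The median over genes with a mean of at least 1 UMI per spot was 18.7% in the NCD and 16.9% in the HFD section. Apoc1 had 9.57% in the HFD section, and which gene was the most even changed with the depth to which spots were thinned. Within bins of spots at like lobule position, defined next, the median excess CV of Apoa4 was 39.8% in the NCD and 27.9% in the HFD section, so part of its NCD spread went with lobule position.

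Liver lobules run from the portal tract to the central vein, and hepatocytes along this axis differ in what they express. Spot positions were not used here, and each spot was placed by its own transcripts, as log2 of 8 pericentral genes (among them Glul and Cyp2e1) over 7 periportal genes (among them Cyp2f2 and Sds) at 3000 UMIs. The spots of each section were then cut into 5 bins of equal number, with bin 1 at the periportal and bin 5 at the pericentral end. Bins rank spots within a section, so bins of the same number need not hold the same lobule position in both sections. Bin 5 held 20887 CPM of the pericentral index genes in the NCD and 14117 CPM in the HFD section. None of the apolipoproteins entered the index. Of 5 pericentral and 5 periportal genes kept out of it, each went in its own direction in both sections, such as Cyp2c29 with log2 ratios of bin 5 over bin 1 of 2.64 and 2.15 and Arg1 with -1.04 and -1.12.

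In the NCD section Apoa4 and Apoc2 passed the call on the periportal side, 2 of 10 where 3.78% of 1877 genes did, and 0 of 10 passed on the pericentral side, where 13.4% did. In the HFD section only Apoc2 passed, 1 of 10 on the periportal side where 3.99% of 5139 genes did, and again 0 of 10 on the pericentral side, where 7.88% did. The median log2 ratio of the 10 genes was -0.13 in the NCD and -0.04 in the HFD section, against 0.13 and 0.12 over all genes measured. The lobule ratios of single genes below were not centred on these medians.

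**Figure D3:**
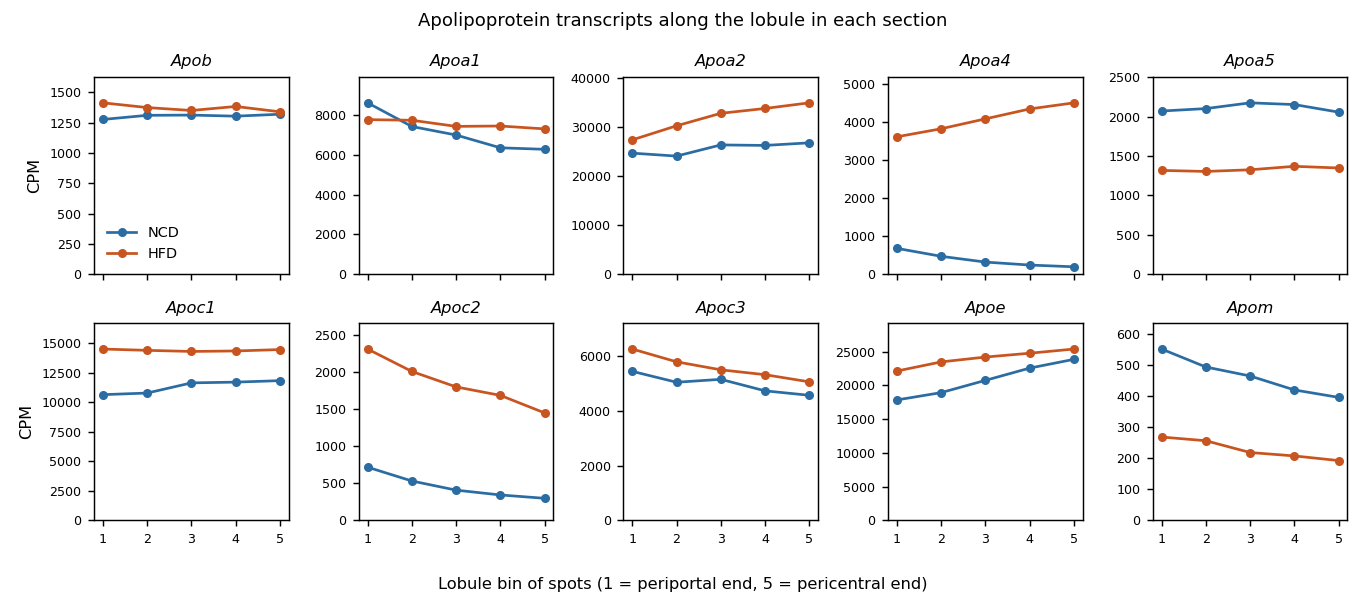
CPM of each gene (vertical axis, from 0) in 5 bins of spots from the periportal end (1) to the pericentral end (5), blue for the NCD and orange for the HFD section. Apoa4 declined from 680 to 194 CPM along the NCD lobule and climbed from 3620 to 4515 CPM along the HFD lobule; Apoc2 and Apom declined in both, and Apoe climbed in both.

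Apoa4 had opposite gradients in the sections. In the NCD section its CPM was 680, 470, 318, 240 and 194 from bin 1 to bin 5, giving a log2 ratio of -1.81 (-1.92 to -1.70). In the HFD section it was 3620, 3832, 4093, 4354 and 4515, giving a log2 ratio of 0.32 (0.30 to 0.33). Each step went the same way within a section. The gradients differed by 2.13 (2.02 to 2.23) on the log2 scale, the widest gap among the 10 genes. The HFD to NCD ratio of Apoa4 was accordingly 2.41 (2.36 to 2.47) in bin 1 and 4.54 (4.45 to 4.63) in bin 5. Such ratios compare bins of the same rank and not spots matched for lobule position.

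Apoc2 was periportal in both sections, less so in the HFD section. Its CPM was 716, 530, 407, 342 and 297 across the NCD bins, giving a log2 ratio of -1.27 (-1.36 to -1.18). Across the HFD bins it was 2307, 2005, 1797, 1683 and 1447, a ratio of -0.67 (-0.70 to -0.65). The gradients differed by 0.60 (0.50 to 0.69), and the HFD to NCD ratio was 1.69 at the periportal and 2.28 at the pericentral end.

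Apoa1 declined from 8636 to 6293 CPM along the NCD lobule, giving a log2 ratio of -0.46 (-0.48 to -0.44), and was nearly flat in the HFD section, from 7789 to 7322 CPM, a ratio of -0.09 (-0.10 to -0.08). Its HFD level was lower than the NCD level at the periportal end, with a log2 ratio of -0.15, and higher at the pericentral end, with 0.22. Less the median log2 ratio of the whole sections, 0.19, these were -0.34 and 0.02. The median gene of each end bin was not taken, so the sign at the pericentral end depends on the reference used. Apom declined alike in both, from 553 to 397 CPM and from 269 to 193 CPM, with log2 ratios of -0.48 (-0.56 to -0.39) and -0.48 (-0.55 to -0.41), close to the call. Apoc3 also declined in both, with -0.25 and -0.31.

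Short of the call, Apoe climbed toward the pericentral end, from 17842 to 23856 CPM in the NCD section, giving a log2 ratio of 0.42 (0.41 to 0.43), and from 22126 to 25381 CPM in the HFD section, a ratio of 0.20 (0.19 to 0.20). Apoa2 had ratios of 0.12 in the NCD and 0.35 in the HFD section, where it reached 34966 CPM in bin 5. The median gene had 0.13 and 0.12, so the NCD value of Apoa2 was close to it and HFD Apoe was little above it. Apob, Apoa5 and Apoc1 had log2 ratios between -0.08 and 0.15 in the sections. The HFD to NCD ratio of Apoa5 lay between -0.71 and -0.61 in every bin and that of Apom between -1.09 and -0.94, so both were lower by like amounts in every bin.

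**Figure D4:**
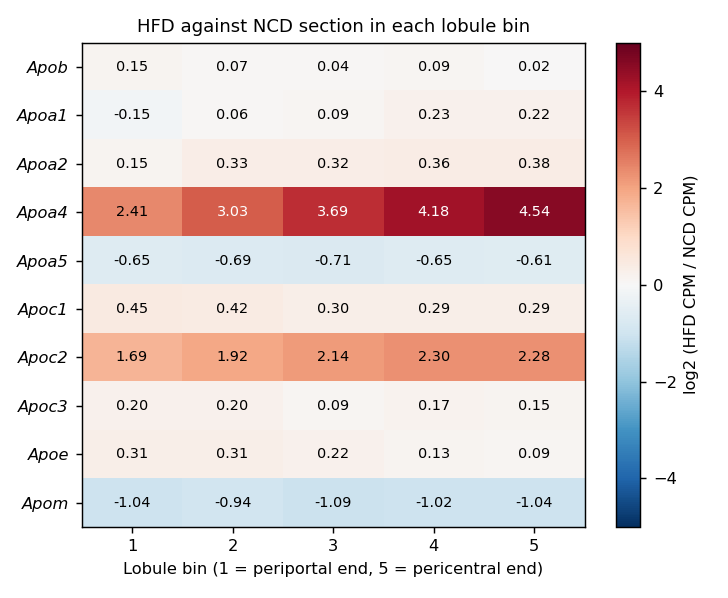
Log2 ratio of HFD over NCD CPM for each gene (rows) in each lobule bin (columns, 1 periportal to 5 pericentral), with red for higher and blue for lower in the HFD section. Apoa4 ran from 2.41 to 4.54 between bins 1 and 5, Apoc2 from 1.69 to 2.28, Apoa1 from -0.15 to 0.22 (-0.34 to 0.02 less the median log2 ratio of the whole sections), and Apoa5 and Apom were lower in all 5 bins. Bins were ranked within each section and are not matched for lobule position.

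Other values moved along the same axis. The 6 hepatocyte genes went from 110231 to 68975 CPM along the NCD bins and from 115098 to 78975 CPM along the HFD bins, and the 5 lipid droplet genes (Plin2, Plin4, Plin5, Cidec and Cidea) went from 409 to 483 and from 723 to 1122 CPM. Median UMIs per spot in bins 1 and 5 were 7750 and 9260 in the NCD section and 26927.5 and 18035 in the HFD section. Their part in the gradients was not tested.

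Spots were also ranked by the lipid droplet genes. In the HFD section Apoa4 stood at 3817 CPM in the lowest and 4351 CPM in the highest of 5 lipid droplet bins, giving a log2 ratio of 0.19 (0.17 to 0.21), and the mean ratio within lobule bins was 0.09. Apom stood at 248 and 212 CPM, a ratio of -0.23 (-0.30 to -0.15), with -0.10 within lobule bins and below 0 in each. For the 10 genes together the ratio was 0.03. In the NCD section no gene had a ratio beyond 0.10 in either direction, where spots held few lipid droplet UMIs, a mean of 3.10 per spot in the highest bin. Lipid droplet UMIs were few in the HFD section too, a mean of 0.638 per spot in the lowest and 5.58 in the highest bin. No apolipoprotein came near the call in either section, but counting noise in such a ranking draws ratios toward 0.

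Apoe is also made by macrophages, and its level was compared between spots with and without their transcripts. In the NCD section Apoe stood at 21368 CPM in 438 spots with at least 2 Kupffer cell UMIs and at 20538 CPM in 953 spots with none, giving a log2 ratio of 0.06 (0.05 to 0.07). For the HFD section the ratio was 0.04 (0.04 to 0.05). In 686 HFD spots with lipid-associated macrophage transcripts (Trem2, Gpnmb, Mmp12, Cd9, Spp1 and Lpl) Apoe stood at 23025 CPM, against 24197 CPM in 1826 spots without, a ratio of -0.07 (-0.08 to -0.07). The NCD ratio for these transcripts was -0.15 (-0.17 to -0.13), at 18911 CPM in 89 spots against 20991 CPM in 1757. Spots were not matched for lobule position, along which Apoe climbed in both sections. Kupffer cell transcripts went from 217 CPM in bin 1 to 308 CPM in bin 5 of the NCD section and from 153 to 262 CPM in the HFD section. What macrophages add to the Apoe level was not tested.

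Spots with transcripts of other cell types were likewise not matched for lobule position, and NCD bin 1 as a whole held 680 CPM of Apoa4. The NCD level of Apoa4 was higher in spots with bile duct transcripts. It stood at 740 CPM in 71 spots with bile duct transcripts and at 350 CPM in 1920 spots without, giving a log2 ratio of 1.08 (0.95 to 1.20), and its ratio was 0.87 (0.75 to 0.99) in spots with lipid-associated macrophage transcripts, a list that shares Spp1 with the bile duct list. The same ratios in the HFD section were 0.03 and 0.11. With smooth muscle transcripts the Apoa4 ratio was 0.69 in the NCD and 0.13 in the HFD section. Apoc2 had 0.66 and 0.33 with bile duct transcripts in the NCD and HFD section. Bile duct transcripts as a whole stood at 49.9 CPM in the NCD and 200 CPM in the HFD section. Spp1 alone made up 43.5 and 187 CPM of these, so the spots with bile duct transcripts rest largely on Spp1. Smooth muscle transcripts stood at 25.9 and 68.7 CPM. Apob was lower in 107 HFD spots with smooth muscle transcripts, at 1023 against 1390 CPM, giving a log2 ratio of -0.44 (-0.51 to -0.38).

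Among 679 genes with a mean of at least 0.5 UMIs per spot in both sections, the pattern across spots at 3000 UMIs most like that of Apoe was that of Cyp2e1, with Pearson r = 0.50 in the NCD and 0.31 in the HFD section. Cyp2e1 was also the closest gene to Apoa2, with r = 0.26 and 0.49. Mup20 was the closest to Apoc2, with r = 0.34 and 0.32, and had r = 0.40 with Apoa4 in the NCD section but 0.10 in the HFD section. Spots of 1 section share a library, so these values describe 2107 and 3538 spots and carry no test. For Apob, Apoa5 and Apom the highest r that held in both sections was at most 0.10, too weak to name a partner.

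The other genes of lipoprotein metabolism are read against the shares of all genes, 24.2% higher and 5.47% lower, and each list was also counted after centring on the median gene, a setting chosen after the data were seen. Of 13 other apolipoproteins and HDL proteins with at least 1000 UMIs, 5 were higher in the HFD section and 1 was lower (background 24.2% and 5.47%), or 4 and 2 when centred. The serum amyloid A genes, acute phase proteins carried on HDL, stood at 107 and 529 CPM for Saa1, 38.6 and 244 CPM for Saa2 and 87.0 and 250 CPM for Saa4, with log2 ratios of 2.31, 2.66 and 1.52. Apol9a and Apol9b, near-identical genes whose reads the counting could split, had 1.34 and 0.67, the latter short of the call at 0.48 when centred. Apoh, a phospholipid-binding plasma protein, was lower, at 1872 against 2901 CPM, a ratio of -0.63, and Pon1, a lactonase carried on HDL, had -0.40, which passed the call at -0.59 when centred.

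Of 10 genes of VLDL assembly and secretion, 3 were higher and none was lower (background 24.2% and 5.47%), or 1 and none when centred. Cideb, which acts in VLDL lipidation and maturation, stood at 139 and 274 CPM, giving a log2 ratio of 0.98 (0.93 to 1.03). Sec24c, a coat protein of vesicles that leave the endoplasmic reticulum, had 0.68, and P4hb, the partner subunit of the microsomal triglyceride transfer protein, had 0.54. Both fell short of the call when centred, at 0.48 and 0.35. Mttp itself, which loads lipid onto Apob, stood at 132 and 136 CPM, a ratio of 0.04 (-0.01 to 0.10), and so was close to level like Apob.

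Of 6 genes of particle uptake described here, none passed the call (background 24.2% and 5.47%), nor did any when centred. Lrp1, which takes up remnant particles, stood at 185 and 255 CPM with a log2 ratio of 0.46 (0.42 to 0.51), and Scarb1, the HDL receptor, had 0.32 (0.25 to 0.38). Of 9 genes of HDL transfer and lipolysis, 2 were higher and 2 lower (background 24.2% and 5.47%), or 2 and 3 when centred. Lpl, lipoprotein lipase, stood at 11.9 and 28.8 CPM, a ratio of 1.27, and Lipg, endothelial lipase, had 1.51. Lipc, hepatic lipase, was lower, with -0.66, as was the sterol transporter Abcg5, with -0.51. Abcg8, the partner of Abcg5, had -0.50, just short of the call, and passed it at -0.69 when centred. Lpl, whose cofactor is Apoc2, is at the same time 1 of the lipid-associated macrophage genes above.

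Of 14 transcription factors known to act on these genes, 3 were higher and 1 was lower (background 24.2% and 5.47%), or 2 and 2 when centred. Creb3l3, a liver factor known to activate Apoa4, Apoa5 and Apoc2, stood at 215 and 311 CPM, giving a log2 ratio of 0.53 (0.49 to 0.58), short of the call at 0.34 when centred. Foxo1, which insulin restrains, had 0.90 and Srebf1, the lipogenic factor, 0.75. Prox1, a corepressor of hepatocyte metabolic genes, was lower, with -0.67, and Nr5a2, a nuclear receptor of bile acid and cholesterol genes, had -0.45, past the call at -0.64 when centred. Hnf4a, a main activator of hepatic apolipoprotein genes, stood at 153 and 187 CPM, a ratio of 0.29 (0.24 to 0.34), short of the call. Over the 5 lists, in the order given, the medians were 0.22, 0.25, 0.36, 0.08 and 0.16, beside the 0.19 of all genes.

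**Figure D5:**
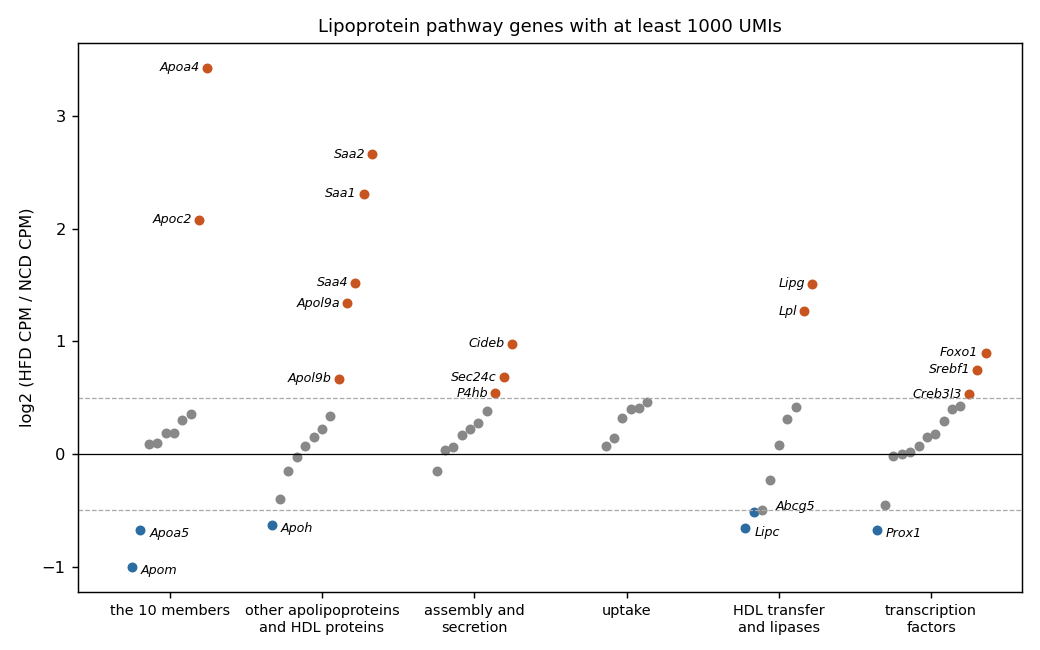
Log2 ratio of HFD over NCD CPM (vertical axis) for the 10 apolipoproteins and for 5 lists of lipoprotein genes with at least 1000 UMIs, each point a gene, orange past 0.5, blue past -0.5 and grey between (dashed lines). Apoa4 at 3.43 is above every other gene shown, Saa2 at 2.66 comes next, and most genes of each list lie between the lines, where points under 0.19 turn negative if centred on the median gene.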

How the data were processed

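The values are UMI counts per gene and spot in 10x Genomics sparse matrices, deposited by the authors as filtered tables (spots called over tissue) and raw tables (all spots). Per the study's methods and the labels, the authors made the counts with Space Ranger 1.3.1 on build mm10, and replicates were not pooled; the annotation release is not given in the sources used here. The 10 genes and all gene lists were chosen with earlier results of these data known.

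Counts were summed over the spots of a section and divided by their total, with exact Poisson 95% intervals for CPM and exact conditional binomial intervals for ratios. Genes called required 1000 UMIs over both sections, or 500 UMIs over both end bins for the lobule. Thinning to 3000 UMIs used a fixed seed and left out 1585 NCD and 56 HFD spots. The index added 1 to each sum. Excess CV is the SD beyond counting noise over the mean, and is imprecise at means near 1 UMI. Spots with other cells had at least 2 UMIs of a list. Nearest genes were the 3 with the highest r, ranked by the lower of both sections. Genes named from lists are those past the call, also when centred on the median gene, with Mttp, Apoc4, Lrp1, Scarb1, Hnf4a and cell type markers named as references after their values were seen. One listed gene of particle uptake is not reported here. Settings varied were the spots entering, depth, genes in the total, free RNA, centring, index genes, bins and seed. No single spot could be called a doublet, since a spot is a small region holding several cells. Gene positions came from GENCODE M21 and promoters from RefSeq. The ratio step was tested on simulated data. Work was done with scipy 1.17.1, numpy 2.4.6, matplotlib 3.10.9 and pandas 2.3.3 under Python 3.11.15.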

Additional observations from a re-analysis of the deposited data

Results flagged for a closer look

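The lobule gradient of Apoa4 ran in opposite directions in the sections, with log2 ratios of pericentral over periportal CPM of -1.81 in the NCD and 0.32 in the HFD section, a gap of 2.13. With 1 section per diet this gap between groups was not tested.

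Spots of the capture area not called over tissue also held the apolipoprotein transcripts, although no comparison above used them. Their summed level was 78093 CPM in 1300 NCD spots, which held 19.1% of the UMIs of that slide, and 77420 CPM in 1398 HFD spots, which held 2.93%. Median UMIs per spot off tissue were 3383 on the NCD slide, against 4187.5 over tissue, and 1175.5 on the HFD slide, against 18549. The background was thus nearly as deep as the tissue on the NCD slide only, and its part in the NCD gradients and spread was not tested. Levels over tissue differed from those off tissue by log2 ratios from -0.28 for Apom to 0.12 for Apob on the NCD slide and from 0.19 for Apoa2 to 0.67 for Apob on the HFD slide. Off tissue, Apoa4 stood at 439 CPM on the NCD slide and 3306 CPM on the HFD slide, and Apom at 568 and 188 CPM.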

How the results depend on the processing

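No paired analysis was possible because the sections share only replicate number 1. The counts of 2 genes higher and 2 lower in the HFD section held in the 11 alternatives other than depth classes. In these, ratios ranged from 3.24 to 3.56 for Apoa4, 1.88 to 2.16 for Apoc2, -0.87 to -0.52 for Apoa5 and -1.20 to -0.86 for Apom, with one end at centring on the median gene and the other at subtraction of the off-tissue profile. That subtraction took the same 20% from both sections, although the background was far deeper on the NCD slide. A larger share for the NCD section was not tested, so these ranges do not bound the effect of background. Apoa5, at -0.52 after this subtraction, was already near the call. The summed HFD to NCD log2 ratio of 0.30 stayed at 0.30 in spots with at least 3000 UMIs and was 0.36 when CPM was averaged over spots, 0.35 thinned to 3000 UMIs, 0.26 without mitochondrial genes in the total, 0.25 without Mup genes as well, 0.27 without the 20 most abundant other genes, 0.37 after off-tissue subtraction at 20%, 0.11 centred, 0.32 without the 1% of spots with the most UMIs and 0.31 without spots with plasma cell, smooth muscle or bile duct transcripts. Within depth classes, chosen after the data were seen, the summed ratio was 0.49 with 4 genes higher and 1 lower at 1000 to under 3000 UMIs, 0.44 with 3 higher at 3000 to under 10000 and 0.28 at 10000 or more, through Apoa2, Apoc3 and Apoa5. The summed lobule ratio, 0.10 in the NCD section, was 0.11 with other index genes, 0.12 with 10 bins, 0.12 at 1000 UMIs, 0.09 at 8000 UMIs, 0.14 from thinned counts, 0.12 without index genes in the total and 0.08 with a second seed. In the HFD section it was 0.14, and 0.13 without Cyp2e1 and Cyp2f2, 0.11 with other index genes, 0.12 with 3 bins, 0.16 with 10 bins, 0.14 at 1000 UMIs, 0.15 at 8000 UMIs, 0.16 without index genes in the total and 0.15 with a second seed. The count of periportal genes in the HFD section went from 1 to 2 with 10 bins, at 8000 UMIs, from thinned counts and with a second seed, each time through Apom, and that in the NCD section from 2 to 3 with mean ranks and at 8000 UMIs, also through Apom (-0.51 and -0.53). The gradient of Apoa4 kept its direction in all 10 lobule alternatives in each section, from -1.96 to -1.53 and from 0.28 to 0.34. Of 310 values for single genes outside the depth classes, 140 stayed within their counting interval and 170 moved beyond it. A change of sign was counted only where the main ratio was past the call, and there 0 occurred. Most of the 310 values belong to smaller ratios, some of which did change sign, such as Apob at -0.11, Apoa1 at -0.10 and Apoe at -0.01 when centred. The excess CV of Apob in the NCD section, 13.4%, was 0% at 1000 UMIs and 6.62% at 8000 UMIs, so depth limits it. The causes were not tested.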
